A study of Mus musculus with 8 samples.

Results

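Aminoacyl-tRNA synthetases, the enzymes that join each amino acid to its tRNA, were followed in CD4+ T cells from inflamed mouse knees. The members were 36 genes chosen by symbol, 20 for cytosolic enzymes and 16 for mitochondrial ones (each with the suffix 2), out of 24421 symbols in the count table. All 36 symbols were found, 35 had at least 1 count, and 30 (20 cytosolic, 10 mitochondrial) had enough counts to be tested. The cells were sorted from enzymatically digested joints of male mice aged 16 weeks. All mice had antigen-induced arthritis. Wild-type cells gave 4 libraries and Slc7a5 knockout cells gave 4. The extent of the deletion, the driver of any Cre enzyme, the number of cells per library and whether each library is a separate animal are not given in the sources used here, so p-values here reflect spread among the libraries alone, part of which may be technical.

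Each synthetase recognises its own amino acid and the matching tRNAs, and the charged tRNA then carries the residue to the ribosome. The cytosol and the mitochondrion use largely separate sets of these enzymes, all encoded in the nucleus, while Gars and Kars encode both forms. Several cytosolic enzymes are held together in the multisynthetase complex, and many cytosolic synthetase genes are targets of ATF4, the transcription factor that responds to amino acid shortage. Slc7a5 encodes the light chain of LAT1, which brings large neutral amino acids such as leucine, phenylalanine and tryptophan into activated T cells. The comparison of genotypes asks how its loss alters T cell transcripts in the joint.

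Library totals ran from 18837650 to 36436923 counts. Slc7a5, the targeted gene, was counted 385, 194, 410 and 0 times in the wild-type libraries and never in knockout (exact permutation test, two-sided p = 0.143, n = 4 each). Taking 3 counts for the pooled knockout libraries as the limit of detection, knockout was at least 239-fold lower. This bound reflects counting alone. It leaves out the spread between libraries, and wild-type replicate 4 also had 0 counts. The library labelled wild-type replicate 4 could not be told from knockout by this gene. Knockout replicate 4 stood apart: 5221 genes had a count there, against 7684 to 10139 in the others. T cell markers (7 of 10 among the symbols, each detected in all 8 libraries) summed to 6390 to 9004 CPM (counts per 1000000 of the library) in wild type and 5037 to 7245 CPM in knockout. All 7 had lower estimates in knockout, as did 55.0% of all tested genes. For 2 of the 7, each knockout library lay below all wild-type libraries, as for 4.62% of all tested genes. Of the 4 MHC class II markers, made mainly by antigen-presenting cells, all 4 had higher estimates in knockout. They summed to 1152 to 2930 in wild type and 1840 to 10832 CPM in knockout. The 7 monocyte and macrophage markers summed to 65.1 to 110 and 54.5 to 109 CPM, with 2 at 0 in every library. The 4 B cell markers summed to 0 to 8.12 in wild type and 0 to 39.6 CPM in knockout, with 2 at 0 in every library. Neutrophil markers summed to 0 to 72.9 and 0 to 70.1 CPM, and endothelial ones to 57.4 to 158 and 0 to 124 CPM. CD8 T and NK cell markers reached 57.7 in wild type and 264 CPM in knockout replicate 4, and the 4 erythroid markers were at 0 throughout. What these markers contribute to the synthetase values was not tested except where a value is given. Without replicate 4 of both genotypes, the log2 fold changes described next were 1.06 for Eprs, 0.42 for Nars, 1.18 for Hars2 and -4.12 for Cars.

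No synthetase passed the test between genotypes. By the quasi-likelihood test of edgeR, adjusted after Benjamini and Hochberg, 0 of the 30 tested members and 0 of all 8489 tested genes (0.00%) had an adjusted p under 0.05. At an unadjusted p under 0.05 there were 3 members, Eprs, Nars and Hars2, all higher in knockout, where 1.87% of all tested genes were higher and 1.97% lower. DESeq2 called 1 member, Cars, among 387 genes, while limma voom called 0 members of 9 genes and its version with quality weights 0 of 4. The cytosolic estimates divided evenly, 10 higher and 10 lower in knockout, with a median log2 fold change of 0.07, where 45.0% of all tested genes had higher and 55.0% lower estimates. The 10 tested mitochondrial members divided into 5 and 5, with a median of 0.01, against -0.12 over all genes tested. With library totals in place of TMM scaling, both medians turned negative (-0.02 and -0.13) and that of all genes was -0.22. The mitochondrial median was -0.71 without knockout replicate 2 and 0.40 without knockout replicate 4, and the cytosolic one ran from -0.14 to 0.25 with 1 library left out, so neither median has a settled sign.

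**Figure D1:**
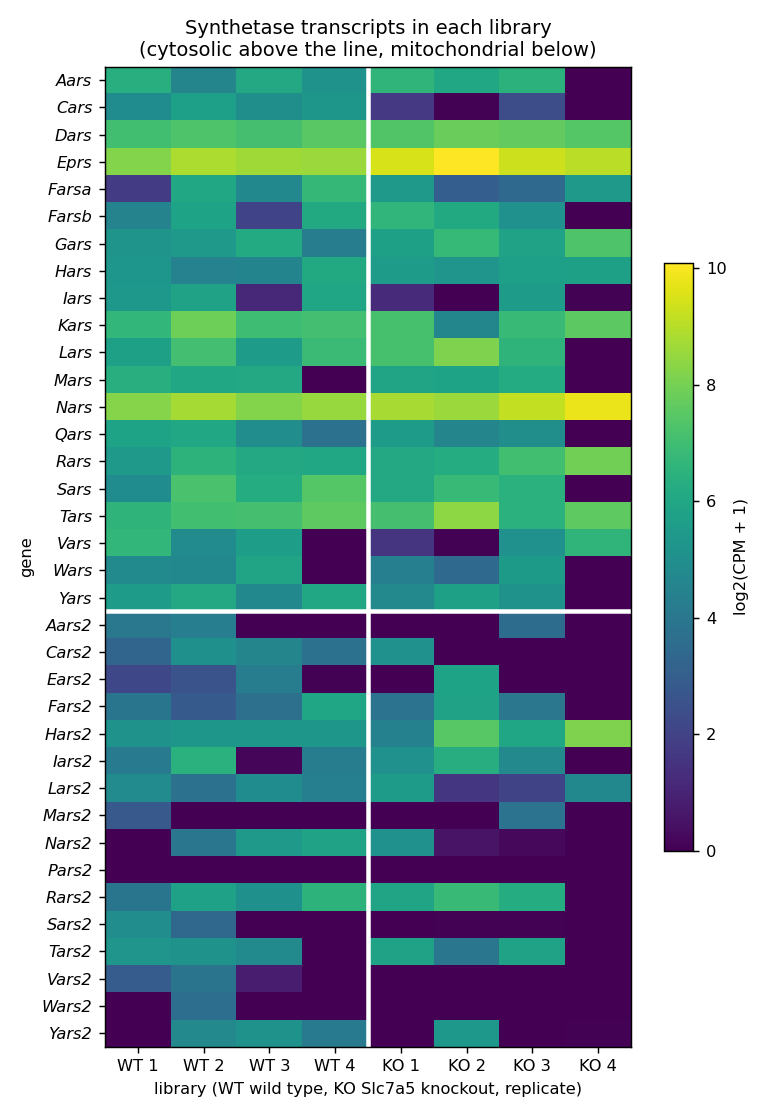
Level of each of the 36 synthetase genes (rows) in each of the 8 libraries (columns), as log2(CPM + 1), cytosolic genes above the white line and mitochondrial genes below it. Eprs and Nars are the brightest rows, the mitochondrial rows hold most of the dark cells, and the column of knockout replicate 4 is at 0 for 9 cytosolic and 13 mitochondrial genes.

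The cytosolic enzymes were the abundant set. CPM values use the library size scaled by TMM, a method that balances libraries on most of their genes. Summed over the 20 cytosolic members, the level was 1608, 2341, 1731 and 2084 CPM in wild-type replicates 1 to 4 and 2353, 2945, 2433 and 2568 CPM in knockout replicates 1 to 4. Each knockout library lay above every wild-type library. The means were 1941 ± 335 and 2575 ± 262 CPM (SD, n = 4 each), a ratio of 1.33. The groups overlapped under scaling by library totals (1587 to 2406 against 2363 to 2610 CPM) and by upper quartile (1683 to 2413 against 2259 to 2891 CPM).

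Most of that difference lay in 2 genes. Of the 634 CPM between the means, Eprs made up 56.3% and Nars 35.2%. Without them, the other 18 cytosolic members summed to 1009, 1451, 1035 and 1333 in wild type and 1210, 1472, 1215 and 1146 CPM in knockout. Those sums overlapped, with means of 1207 ± 219 and 1261 ± 144 CPM. Eprs and Nars together took 37.2%, 38.0%, 40.2% and 36.03% of the cytosolic sum in wild type and 48.6%, 50.02%, 50.1% and 55.4% in knockout. The pair was singled out after its values were seen, so the separation is a description.

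**Figure D2:**
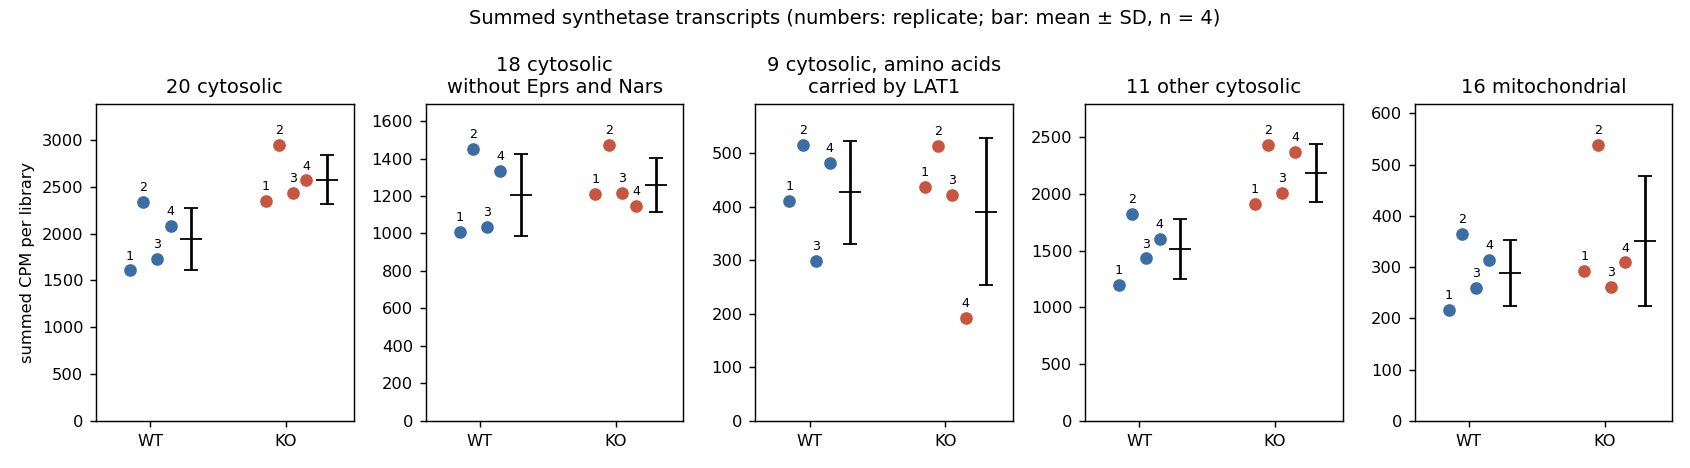
Summed CPM per library (vertical axes, each from 0) for 5 sets of synthetases in wild type (WT) and Slc7a5 knockout (KO). Points are libraries numbered by replicate, and the bars give mean ± SD (n = 4). With TMM scaling, the knockout points lie above all wild-type points for the 20 cytosolic genes and for the 11 outside the listed LAT1 set. The set of 20 overlaps under library totals and upper quartile. In the other 3 panels the points of the genotypes overlap.

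Eprs encodes the enzyme for both glutamate and proline, a member of the multisynthetase complex that is also known for holding back translation of inflammatory transcripts after interferon gamma. The gene lies on chromosome 1 from 185363044 to 185428360 (GRCm38, plus strand). Its level was 293, 464, 400 and 383 in wild type and 709, 1092, 641 and 526 CPM in knockout. Every knockout library was above every wild-type library, as for 1.52% of all tested genes. The mean was 1.93-fold higher in knockout (log2 fold change 0.95, SE 0.27), with an unadjusted p of 0.00445 and an adjusted p of 0.460 in edgeR. The MHC class II sums of knockout replicates 1 to 4 were 8632, 9885, 1840 and 10832 CPM, against 1152 to 2930 CPM in wild type. The part of MHC class II transcripts in the Eprs values was not tested. Under upper quartile scaling the groups overlapped, at 307 to 478 against 463 to 1072 CPM.

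Nars, the cytosolic asparagine enzyme, was at 305, 425, 296 and 368 in wild type and 434, 381, 577 and 895 CPM in knockout. Knockout replicate 2 lay below the highest wild-type library, so the groups overlapped. The log2 fold change was 0.71 (SE 0.30, edgeR unadjusted p = 0.0345, adjusted p = 0.9999). Without knockout replicate 4, the library that stood apart and held the most Nars, it was 0.39.

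The other cytosolic enzymes were taken in order of role. Beside Eprs, the multisynthetase complex holds the enzymes for aspartate (Dars), isoleucine (Iars), lysine (Kars), leucine (Lars), methionine (Mars), glutamine (Qars) and arginine (Rars). Dars varied least of the 7, at 129, 159, 136 and 184 in wild type and 164, 223, 202 and 170 CPM in knockout. The means of 152 ± 24.7 and 190 ± 27.8 CPM overlapped (log2 fold change 0.32, SE 0.34). Rars was at 41.9, 90.6, 68.0 and 64.4 in wild type and 67.2, 74.4, 131 and 246 CPM in knockout. Its log2 fold change of 0.97 (SE 0.64) was 0.44 without knockout replicate 4.

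Kars had 103 to 231 in wild type and 23.6 to 186 CPM in knockout, where replicate 2 was the low library. Lars had 47.1 to 134 CPM in wild type, and 140, 280, 94.3 and 0 CPM in knockout. Lars was above all wild-type libraries in knockout replicates 1 and 2, inside their range in replicate 3 and missing from replicate 4. Its log2 fold change of 0.56 had an SE of 1.36. Mars was at 0 CPM in replicate 4 of both genotypes and at 57.2 to 80.1 CPM in the other 6 libraries, with no separation. Qars ran from 12.6 to 62.9 in wild type and from 0 to 45.3 CPM in knockout.

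Iars, the isoleucine enzyme, was nearly missing from 3 of 4 knockout libraries. Its counts were 1460, 1523, 40 and 1357 in wild type and 33, 0, 1187 and 1 in knockout. That corresponds to 40.6, 55.0, 1.23 and 59.9 CPM against 1.39, 0, 47.3 and 0.0522 CPM. Wild-type replicate 3 and knockout replicate 3 went against their groups, and the log2 fold change of -1.69 had an SE of 2.22. Without knockout replicate 3 it was -6.33, so 1 library sets its size. The 7 complex members besides Eprs summed to 472 to 797 in wild type and 601 to 689 CPM in knockout.

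Free cytosolic enzymes varied as much. Gars, the glycine enzyme, was at 36.3, 42.6, 70.5 and 18.5 in wild type and 52.3, 106, 55.7 and 160 CPM in knockout. The groups overlapped, with a log2 fold change of 1.16 (SE 0.88). Tars, for threonine, ran from 93.9 to 193 in wild type and from 86.3 to 334 CPM in knockout. Sars, for serine, was at 29.2, 147, 74.4 and 171 in wild type and 67.6, 112, 85.9 and 0 CPM in knockout, and Aars, for alanine, was likewise at 0 in knockout replicate 4 only. Hars, for histidine, ran from 21.2 to 69.8 and from 37.5 to 52.3 CPM. Its knockout libraries all fell inside the wild-type range.

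Vars, the valine enzyme, was at 102, 27.9, 47.6 and 0 in wild type and 1.94, 0.0556, 33.0 and 97.6 CPM in knockout, so both genotypes held libraries near 0. Wars, for tryptophan and known to be induced by interferon gamma, was at 0 in replicate 4 of both genotypes and at 10.1 to 59.1 CPM in the rest. Yars, for tyrosine, ran from 25.5 to 66.4 in wild type and from 0 to 51.8 CPM in knockout. Farsa and Farsb encode the alpha and beta chains of the phenylalanine enzyme, which works as a tetramer of both. Farsa ran from 2.42 to 104 in wild type and from 7.001 to 43.0 CPM in knockout, and Farsb from 3.14 to 68.6 and from 0 to 100 CPM. Knockout replicate 4 held Farsa at 43.0 CPM and no count of Farsb, so the chains of 1 enzyme were not seen together in that library.

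Cars, the cytosolic cysteine enzyme, had the widest gap between genotypes among the tested members. It lies on chromosome 7 from 143557230 to 143600090 (GRCm38, minus strand). Its counts were 1053, 1397, 1019 and 900 in wild type and 52, 1, 106 and 0 in knockout. In CPM these are 29.3, 50.5, 31.4 and 39.7 against 2.19, 0.0556, 4.22 and 0. Each knockout library was below all wild-type libraries, as for 4.62% of all tested genes, and this held under all 4 scalings. The mean was 37.7 ± 9.63 in wild type and 1.62 ± 2.01 CPM in knockout, a ratio of 23.3. Cars did not pass in edgeR (log2 fold change -4.54, SE 2.17, unadjusted p = 0.0592, adjusted p = 0.9999). DESeq2 gave an adjusted p of 0.0419, where 3.06% of 10659 genes were called lower and 0.572% higher. Leaving out any 1 library kept the log2 fold change between -5.64 and -4.14, with no pass in edgeR. A processed pseudogene, Gm15580, overlaps 211 bases of its exons on the opposite strand, and without a known strand setting its reads cannot be told apart from those of Cars.

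**Figure D3:**
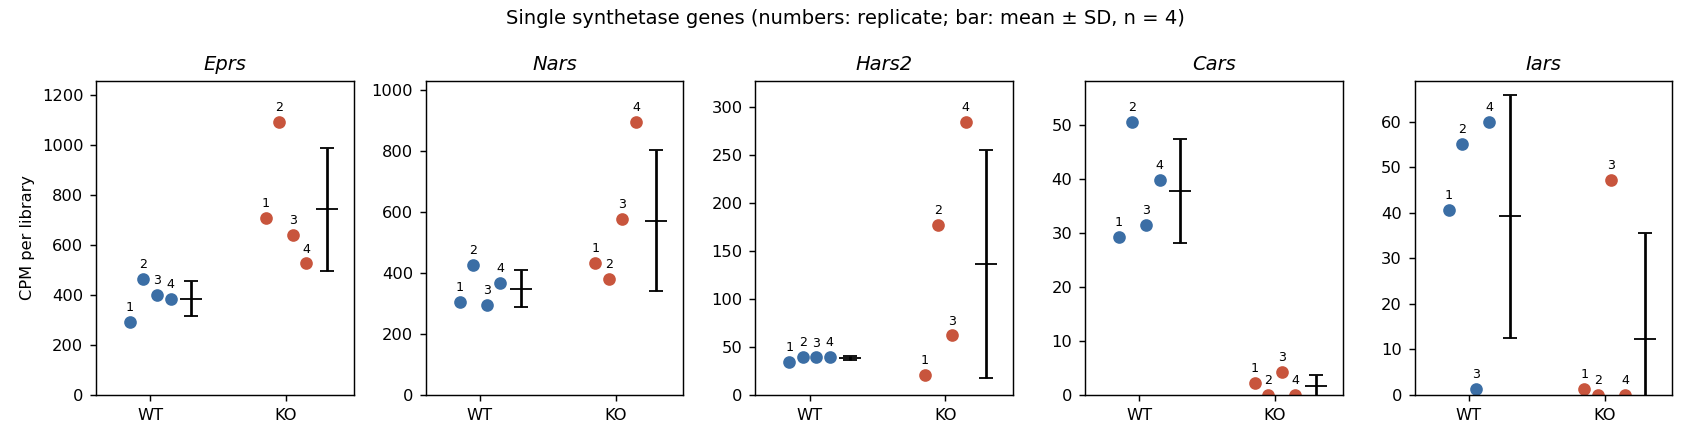
CPM per library (vertical axes, each from 0) of Eprs, Nars, Hars2, Cars and Iars in wild type (WT) and Slc7a5 knockout (KO). Points are libraries numbered by replicate and bars are mean ± SD (n = 4), with bars cut off at 0. Eprs is higher (not under upper quartile scaling, where it overlaps) and Cars lower in every knockout library, while Nars, Hars2 and Iars overlap between genotypes.

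Enzymes for the amino acids listed as LAT1 substrates were set against the rest of the cytosolic enzymes. The first set held 9 genes (Farsa, Farsb, Hars, Iars, Lars, Mars, Vars, Wars and Yars), of which 3 had higher and 6 lower estimates in knockout, with a median log2 fold change of -0.42. They summed to 411, 515, 298 and 482 in wild type and 436, 513, 422 and 193 CPM in knockout, which overlapped. The 11 others had 7 higher and 4 lower estimates (median 0.32) and summed to 1197, 1826, 1433 and 1602 against 1916, 2432, 2012 and 2375 CPM, with no overlap. Eprs and Nars belong to that second set. Without them its 9 remaining members summed to 598 to 936 in wild type and 774 to 959 CPM in knockout, which overlapped. Knockout replicate 4 gave the lowest sum of the first set, with 4 of its 9 genes detected, against 7 of 11 in the second. The medians were compared without a test.

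The enzymes also fall into a pair of unrelated structural families. The 9 cytosolic members of class I had 2 higher and 7 lower estimates in knockout (median -0.61), and their sums of 357 to 577 and 343 to 497 CPM overlapped. The 10 of class II had 7 higher and 3 lower estimates (median 0.31), with sums of 838 to 1344 and 1281 to 1698 CPM. Eprs joins both kinds of domain in 1 chain and was in neither count. GC content differed as well. Transcripts of the 10 cytosolic genes with higher estimates had a median GC content of 47.1%, and those of the 10 with lower estimates 53.3%. With an offset for GC content in the edgeR fit, Kars, Mars and Vars had higher rather than lower estimates in knockout (log2 fold changes 0.40, 0.16 and 0.74), and Eprs was at 1.24 and Cars at -4.37.

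**Figure D4:**
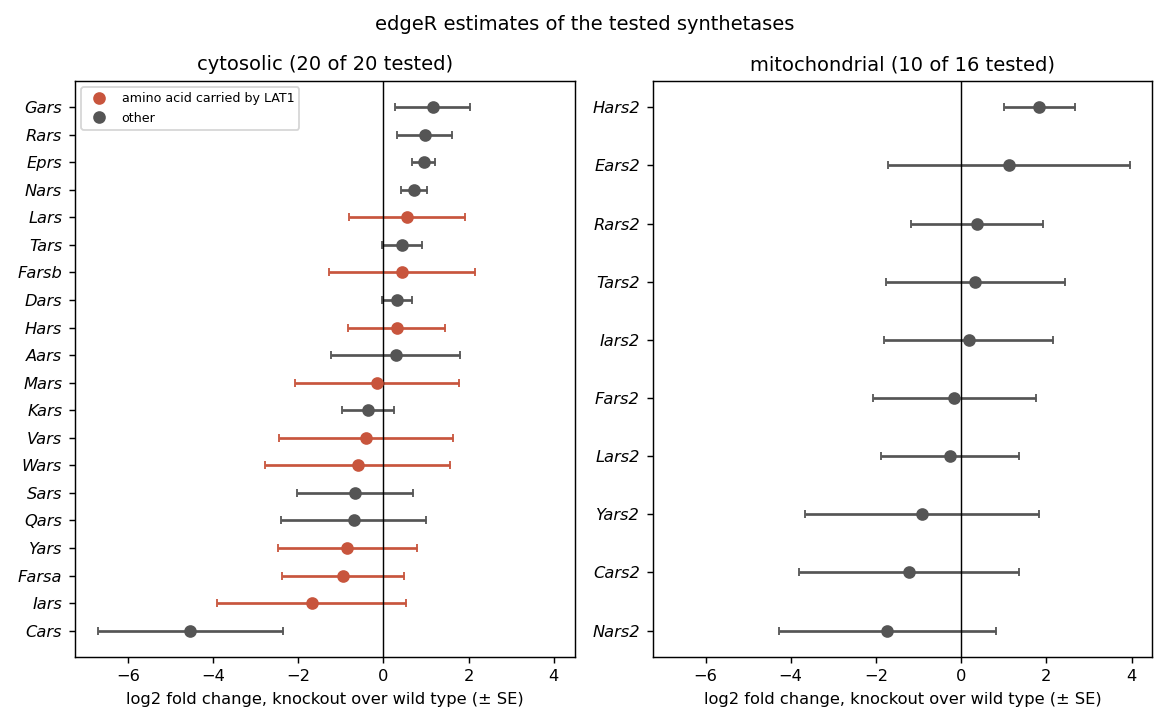
Log2 fold change of knockout over wild type with its standard error (horizontal axis, edgeR) for the 20 cytosolic and 10 mitochondrial genes tested. Red points are cytosolic enzymes whose amino acid LAT1 carries. Eprs, Nars and Dars have the shortest bars on the side of knockout, Cars lies farthest to the left at -4.54, and 0 genes passed the adjusted threshold.

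Promoters of the members are shown for 1 motif, TGATGNAA, the core of the element to which ATF4 binds together with C/EBP proteins. RefSeq start-site windows (GRCm38.p6, 250 bases before to 50 after the start) were searched for 26 members, 12 cytosolic and 14 mitochondrial. The motif, read on both strands, was found for 4 of the 12 cytosolic members and 0 of the 14 mitochondrial ones. It was found for 4.51% of all 27025 genes with a window, and in 3.97% of all 32851 windows. The 4 stretches are printed with the motif, or its reverse complement TTNCATCA, in capitals and 15 bases on each side, 5′ to 3′ along the gene:
Gars: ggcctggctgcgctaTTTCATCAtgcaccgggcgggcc
Iars: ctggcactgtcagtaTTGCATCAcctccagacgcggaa
Tars: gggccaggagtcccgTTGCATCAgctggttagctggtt
Yars: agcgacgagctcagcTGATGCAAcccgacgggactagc

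These stretches are chr6:55037956-55037993 (plus strand) for Gars, chr13:49682122-49682159 (plus) for Iars, chr15:11399651-11399688 (minus) for Tars and chr4:129189891-129189928 (plus) for Yars. The motif begins 30 bases before the start in Gars and 15 before in Tars. It begins at base 8 of the transcript in Iars and at base 4 in Yars. The 4 genes did not share a direction. Their log2 fold changes were 1.16 (SE 0.88) for Gars, -1.69 (SE 2.22) for Iars, 0.44 (SE 0.47) for Tars and -0.85 (SE 1.63) for Yars. Eprs and Dars had windows without a match, and Cars and Nars were not among the genes searched.

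Mitochondrial synthetases, which serve the organelle's own translation, were scarcer and more often missing. The 16 members summed to 217, 365, 259 and 314 in wild type and 293, 538, 261 and 309 CPM in knockout. The means of 289 ± 64.3 and 350 ± 127 CPM overlapped (ratio 1.21). The cytosolic sum was 7.41, 6.42, 6.67 and 6.65 times the mitochondrial one in wild type and 8.03, 5.47, 9.32 and 8.30 times in knockout, which also overlapped. Without knockout replicate 2, the log2 ratio of the mitochondrial sums turned from 0.28 to -0.02.

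Many members were missing from single libraries. Among tested members, at least 1 count was seen in all 8 libraries for 9 of 20 cytosolic and 2 of 10 mitochondrial ones, against 44.6% of all tested genes. Of all 16 mitochondrial members, those with a count numbered 12, 14, 11 and 9 in wild type and 8, 10, 10 and 3 in knockout, and cytosolic ones 20, 20, 20 and 17 against 20, 19, 20 and 11. In knockout replicate 4, 10 of 20 cytosolic and 8 of 10 tested mitochondrial members had 0 or 1 count, as did 49.7% of all tested genes. At least 1 knockout library had no count for 10 cytosolic and 8 tested mitochondrial members, against 52.7% of all tested genes, and at least 1 wild-type library for 3 and 3, against 20.6%. In bulk libraries, fewer cells with a transcript, less RNA per cell and transcripts missed in a low-input preparation cannot be told apart.

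Hars2, the mitochondrial histidine enzyme, was even in wild type and scattered in knockout. It had 34.7, 39.3, 39.1 and 39.9 CPM in wild type (38.3 ± 2.37) and 20.8, 177, 61.9 and 284 CPM in knockout (136 ± 119). Knockout replicate 1 was below all wild-type libraries and the other 3 above them. The log2 fold change was 1.83 (SE 0.83, edgeR unadjusted p = 0.0492, adjusted p = 0.9999), and 1.16 without knockout replicate 4. In that library Hars2 made up 91.8% of the mitochondrial sum, against 10.8% to 16.0% in wild type. Without Hars2 the mitochondrial sum was 182 to 325 in wild type and 272, 361, 199 and 25.3 CPM in knockout. Hars2 and Hars lie head to head on chromosome 18 and share 195 exonic bases on opposite strands, so some of their reads may not be assigned to the right gene.

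Among the other mitochondrial members, Rars2, for arginine, was at 14.1, 54.2, 32.7 and 91.5 in wild type and 58.7, 114, 75.5 and 0 CPM in knockout. Lars2, for leucine, had 12.9 to 29.1 CPM in the wild-type libraries, and 45.1, 2.0, 3.19 and 25.2 CPM in knockout. With Hars2, it was the other mitochondrial member seen in all 8 libraries. Tars2, for threonine, was at 0 in replicate 4 of both genotypes and otherwise at 14.7 to 55.3 CPM. Fars2, for phenylalanine, ran from 6.29 to 60.1 in wild type and from 0 to 54.7 CPM in knockout. Iars2, for isoleucine, ran from 0.0923 to 85.7 and from 0 to 77.2 CPM, and 22.9% of its exonic bases overlap Rab3gap2 on the opposite strand. None of the 5 separated the genotypes.

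Some members were carried by 1 knockout library each. Cars2, for cysteine, had 316, 910, 756 and 288 counts in wild type and 787, 0, 0 and 0 in knockout. Nars2, for asparagine, had 0, 400, 1365 and 1253 counts in wild type and 785, 8, 4 and 0 in knockout, and Yars2, for tyrosine, 0, 727, 1143 and 372 against 0, 739, 0 and 1. Ears2, for glutamate, had 127, 138, 576 and 1 counts in wild type and only replicate 2 in knockout, with 1031. Their log2 fold changes (-1.23, -1.73, -0.92 and 1.12) had SEs of 2.54 to 2.83.

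The 6 members too scarce to be tested were all mitochondrial. Pars2, for proline, had 0 counts in all 8 libraries. Aars2, for alanine, was seen in wild-type replicates 1 and 2 and knockout replicate 3 only, and Mars2, for methionine, in wild-type replicate 1 and knockout replicate 3 only. Sars2, for serine, had 1068, 256, 0 and 0 counts in wild type and 0, 1, 1 and 0 in knockout. Vars2, for valine, had 237, 380, 24 and 0 counts in wild type and none in knockout. With the same limit of 3 pooled counts, which reflects counting alone, Vars2 was at least 155-fold lower in knockout. Wars2, for tryptophan, had 323 counts in wild-type replicate 2 and 0 elsewhere, so its bound of at least 77.9-fold lower rests on 1 library. In a fit without a filter none of the 5 with a count passed in edgeR.

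Levels of single genes were compared per kilobase of the longest coding transcript in GENCODE. The sums of the compartments and their ratio, given above, were not divided by length. In wild type the order began with Nars at 127, Eprs at 78.5, Dars at 69.9 and Kars at 67.4 CPM per kb, followed by Tars at 34.5 and Rars at 31.4. The lowest cytosolic genes were Aars at 8.80, Iars at 8.85 and Wars at 9.85 CPM per kb. Of the exonic bases of Aars, 14.3% overlap Exosc6 on the same strand, and the effect on its level was not tested. The mitochondrial gene with the highest level was Rars2, at 25.8 CPM per kb, and the next was Hars2, at 11.5. Knockout kept Nars and Eprs at the top, at 208 and 151 CPM per kb, and placed Cars at 0.502. In 16 pairings of the compartments by amino acid, with Eprs paired to both Ears2 and Pars2, the wild-type mean was higher for the cytosolic gene in all 16. In knockout the mean was higher for the mitochondrial gene in 3 pairs, those of cysteine, histidine and isoleucine. In each of these 3 pairs the cytosolic gene was still the higher in 2 of 4 knockout libraries. In wild type it was the higher in 2 of 4 for cysteine and for histidine, and in 3 of 4 for isoleucine. The cytosolic gene was higher in all 8 libraries for Nars, Tars and both pairings of Eprs.

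**Figure D5:**
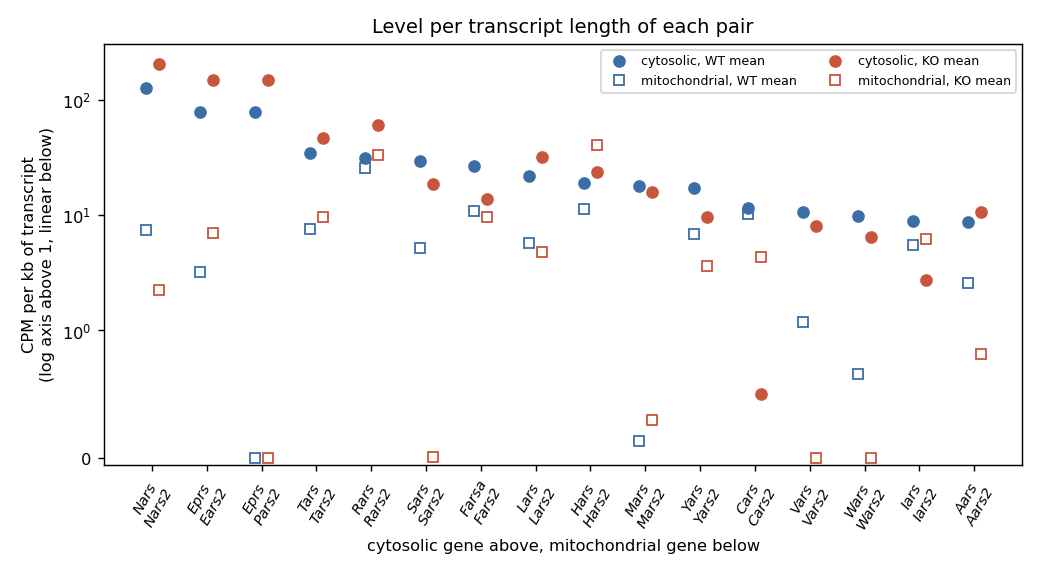
Mean level per kilobase of transcript (vertical axis, log scale above 1 and linear below) of each mitochondrial synthetase (open squares) and the cytosolic enzyme of the same amino acid (filled circles), in wild type (WT, blue) and Slc7a5 knockout (KO, red), n = 4 libraries each. All blue circles lie above their blue squares, while in knockout the squares of Hars2, Cars2 and Iars2 lie above the circles. Points are means, and in each of those 3 pairs the cytosolic gene was the higher in 2 of 4 knockout libraries.

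Other genes of tRNA charging showed no pass either. Of 21 listed, 18 were tested, with 6 higher and 12 lower estimates, 0 passing in edgeR and 0 at an unadjusted p under 0.05. Eef1a1, the elongation factor that delivers charged tRNA to the ribosome, was at 2722, 2568, 2409 and 2253 CPM in wild type and 2117, 1902, 2070 and 2045 CPM for knockout. Its knockout libraries were all below the wild-type ones under all 4 scalings, as for 4.62% of tested genes with the main scaling (log2 fold change -0.29, SE 0.15, edgeR adjusted p = 0.9999). Among the scaffold proteins of the multisynthetase complex, Aimp2 was at 35.9 to 87.1 in wild type and 61.5 to 118 CPM in knockout. Aimp1 and Eef1e1 overlapped too, each with 1 library at 0. Xpot, which exports tRNA from the nucleus, was at 0.167, 5.82, 23.8 and 8.92 in wild type and 43.8, 117, 49.8 and 0 CPM in knockout. It was thus above all wild-type libraries in 3 knockout libraries and missing from replicate 4 (log2 fold change 2.45, SE 2.02). Of the sensors of uncharged tRNA, Eif2ak4, the kinase GCN2, had too few counts to be tested. Gcn1l1, its activator, had 15.5 to 19.5 CPM in the wild-type libraries, and 1.56, 0, 28.9 and 0.0522 CPM in knockout.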

How the data were processed

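Column-purified RNA went into a low-input library kit and was sequenced on a NovaSeq, per the labels' protocols. The authors deposited raw counts of reads per gene symbol, not normalized. Per the submitters' processing notes, the build was mm10, and the tools listed there are edgeR 3.28.1, HISAT2 2.1.0 and featureCounts, in no stated order. Annotation, strand setting and duplicate handling are not given in the sources used here.

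From those counts, genes were filtered with filterByExpr (minimum count 10, minimum total 15), scaled by TMM and tested by edgeR 4.0.16 in R 4.3.3 (quasi-likelihood test, robust, genotype as the only term, Benjamini-Hochberg adjustment over 8489 genes, threshold 0.05). Standard errors were taken as the size of the log2 estimate divided by the root of its F statistic. DESeq2 1.42.0 and limma 3.58.1 served as alternatives, and the edgeR step was tested on simulated data. Positions, exon overlaps, lengths and GC content came from GENCODE M21 (GRCm38, the coordinates of mm10).

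The named genes were all members, Slc7a5, and a list of 21 other charging genes. Members, lists, splits and alternatives were chosen with earlier results of these data known. Library totals were 18837650 to 36436923 counts, and the precision of each estimate is given by its SE between libraries. The start-site window of 1 further member is not reported here. Floors cover counting error only.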

Additional observations from a re-analysis of the deposited data

Results flagged for a closer look

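Within each genotype, 11 of 68 sets of 4 libraries had a library far from the other 3, by Dixon's test at 0.829 of the range. Chance flags about 1 in 20 such sets where values are normally distributed. With 3 libraries at 0 any value in the fourth is picked out, and the chance rate for such counts was not measured. In knockout replicate 1, Cars2 was at 33.2 CPM with the other 3 at 0, and Nars2 at 33.1 CPM with the others at 0 to 0.445. In knockout replicate 2, Ears2 was at 57.3 CPM with the others at 0, and Yars2 at 41.1 CPM with the others at 0 to 0.0522. In knockout replicate 3, Iars was at 47.3 CPM with the others at 0 to 1.39, and Aars2 (10.95 CPM) and Mars2 (13.4 CPM) with the others at 0. Mars2 was also seen in wild-type replicate 1 only, at 6.06 CPM, and Wars2 in wild-type replicate 2 only, at 11.7 CPM. Fars2 was high in wild-type replicate 4, at 60.1 CPM against 6.29 to 14.2. Hars2 was low in wild-type replicate 1, at 34.7 CPM against 39.1 to 39.9, a small gap in a tight set.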

How the results depend on the processing

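The count of synthetases passing was 0 in edgeR under each filter, scaling, block, GC offset, left-out library and a threshold of 0.1. Cars passed in DESeq2, which called 387 genes and 1 member, while limma voom called 9 genes and its version with quality weights 4, with 0 members. The estimates of Eprs (0.68 to 1.24) and Cars (-6.71 to -4.12) kept their sign under every alternative in which they were fitted. So did those of Dars, Gars, Hars, Iars, Nars, Qars, Rars, Yars, Cars2, Hars2, Nars2 and Yars2. The log2 ratio of summed CPM stayed between 0.31 and 0.49 for the cytosolic set and ran from -0.02 to 0.40 for the mitochondrial one. The median log2 fold change of the mitochondrial members was 1.02 at a mean CPM of at least 50, -1.69 in limma voom and -0.69 with the replicate block, and that of the cytosolic members 0.37, -0.53 and -0.23. Over all genes those medians were -0.0056, -1.28 and -0.68. Single members changed sign. In limma voom the log2 fold changes were -2.10 for Aars, 0.015 for Farsa, -1.07 for Farsb, -1.83 for Lars, -3.82 for Ears2, -0.084 for Iars2 and -1.53 for Rars2. With quality weights they were 0.35 for Mars, -5.68 for Ears2 and 0.40 for Fars2. With the GC offset they were 0.40 for Kars, 0.16 for Mars, 0.74 for Vars, 0.37 for Fars2 and 0.42 for Lars2, and the median of all genes moved from -0.12 to 0.16. With the replicate block, Aars was at -0.32 and Ears2 at -6.96, 0 members passed and the median of all genes was -0.68. With the replicate block and GC offset, Mars was at 0.15, Ears2 at -7.04 and Fars2 at 0.26. Same-numbered libraries had correlations over 3034 genes of -0.04, 0.03, -0.01 and -0.02 in their deviations from the genotype means. The labels do not say whether the numbers pair the libraries, and correlations this small cannot settle it. Leaving out 1 library in turn gave ranges that crossed 0 for Aars (-0.0031 to 0.68), Farsb (-0.13 to 0.89), Lars (-0.16 to 0.95), Mars (-0.57 to 0.24), Tars (-0.014 to 0.68), Vars (-1.94 to 0.40), Wars (-1.50 to 0.067), Ears2 (-10.46 to 2.33), Fars2 (-1.31 to 0.92), Iars2 (-0.61 to 1.51), Lars2 (-1.15 to 0.10), Rars2 (-0.10 to 0.88) and Tars2 (-0.091 to 0.73). Without replicate 4 of both genotypes, Sars was at 0.060 and Fars2 at 1.32. The cause of these turns was not tested. Members such as Lars, with 1531 to 5035 counts in 7 libraries, had 0 in knockout replicate 4.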
